A study of Mus musculus with 11 samples.

Results

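Cell cycle and proliferation genes were followed in the region of the mouse testis where the convoluted seminiferous tubules (ST) open through the Sertoli valve (SV) into the rete testis (RT), the duct network that collects luminal fluid. The set holds 41 genes chosen by name: 13 genes of mitosis, 7 cyclins and kinases of S, G2 and M phase, 5 cyclins and kinases of G1 phase, 6 kinase inhibitors and 10 genes of DNA replication. With 1 probe set per gene, the one with the highest mean log2 signal, 40 of them were measured among 18194 genes, and they have 93 of the 45101 probe sets. Ccnb1 was not analysed here. Pieces of SV, RT and ST were dissected from 7-week-old W/Wv mice after trypan blue had been injected through the efferent ducts, and RNA was hybridized to Affymetrix 3′ expression arrays of the mouse genome, 4 for SV, 3 for RT and 4 for ST. All 3 groups carry the same genotype, a pair of mutant Kit alleles that leaves few germ cells in the tubules, and no wild-type array was analysed here. Every array is a pool of 20 testes. The study's methods say that SV pieces very likely held some RT cells.

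A cell enters the division cycle when D-type cyclins (Ccnd1, Ccnd2, Ccnd3) activate CDK4 and CDK6 in G1, which phosphorylate RB proteins and release E2F factors. Cyclins E and A with CDK2 then drive DNA replication, cyclins A and B with CDK1 drive mitosis, and the INK4 (Cdkn2a, Cdkn2b, Cdkn2c) and CIP/KIP (Cdkn1a, Cdkn1b, Cdkn1c) proteins hold the kinases back. In the convoluted tubules, Sertoli cells stop dividing before adulthood while spermatogonia go on dividing, and D-type cyclins are also present in cells that do not divide.

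The values are MAS5 signals on a linear scale, with every array scaled to the same trimmed mean, and the array medians were 65.8 to 110.4. A difference between regions is a log2 fold change from limma with its standard error (SE), and a gene was called at a Benjamini-Hochberg adjusted p under 0.05, over all probe sets, with over 2-fold. Marker genes were summed as a check of the labels. The 11 rete testis markers summed to 5273 to 11739 in SV, 32469 to 47110.1 in RT and 1369.7 to 1668 in ST, so that SV lay between the others. The 15 Sertoli cell markers summed to 97913 to 131059 in SV, 61569 to 79976 in RT and 121646 to 153671 in ST. Of 12 meiotic and postmeiotic germ cell markers, 10 in SV, 11 in RT and 9 in ST were below the array median on every array of the region, while no spermatogonial marker of 18 was so in ST. Replicates 1 and 2 stood apart from 3 and 4 in the 3′ over 5′ signal of Actb (1.31 to 1.43 against 1.73 to 2.12), so counts are also given within these replicates.

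Promoters of 32 members, 37 windows of 300 bases around the gene start in GRCm38.p6, were read from RefSeq, and 4 are shown because their genes stand for the patterns that follow. Letter matches were searched on both strands for the cell cycle genes homology region (CHR, TTTGAA or TTCGAA), found in promoters of late cell cycle genes, for E2F (TTTGGCGC, TTTCCCGC, TTTGCCGC or TTTCGCGC) and for CCAAT, the letters of NF-Y. Capitals mark the matches, and in 1 place of all member windows matches of different motifs overlapped. Cdk1, Top2a and Mcm3 are genes of mitosis, chromosome untangling and replication, and Cdk6 is a G1 kinase gene.
Cdk1: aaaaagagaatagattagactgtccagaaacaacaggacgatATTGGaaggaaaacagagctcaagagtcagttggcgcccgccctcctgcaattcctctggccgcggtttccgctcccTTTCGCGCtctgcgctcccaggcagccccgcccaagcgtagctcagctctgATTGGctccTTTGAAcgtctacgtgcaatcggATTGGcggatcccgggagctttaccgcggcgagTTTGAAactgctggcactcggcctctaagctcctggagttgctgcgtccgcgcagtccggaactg
Top2a: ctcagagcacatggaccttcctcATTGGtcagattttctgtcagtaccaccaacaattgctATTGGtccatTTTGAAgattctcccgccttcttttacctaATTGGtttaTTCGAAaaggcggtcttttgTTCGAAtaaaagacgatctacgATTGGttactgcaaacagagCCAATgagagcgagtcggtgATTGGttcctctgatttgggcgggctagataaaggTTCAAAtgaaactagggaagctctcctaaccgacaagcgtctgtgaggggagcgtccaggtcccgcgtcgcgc
Mcm3: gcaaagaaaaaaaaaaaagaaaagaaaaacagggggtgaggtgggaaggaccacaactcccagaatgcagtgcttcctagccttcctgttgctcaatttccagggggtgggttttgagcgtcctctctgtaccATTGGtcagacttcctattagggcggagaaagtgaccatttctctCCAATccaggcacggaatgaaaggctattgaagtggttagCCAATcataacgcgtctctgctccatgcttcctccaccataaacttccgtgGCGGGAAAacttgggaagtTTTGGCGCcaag
Cdk6: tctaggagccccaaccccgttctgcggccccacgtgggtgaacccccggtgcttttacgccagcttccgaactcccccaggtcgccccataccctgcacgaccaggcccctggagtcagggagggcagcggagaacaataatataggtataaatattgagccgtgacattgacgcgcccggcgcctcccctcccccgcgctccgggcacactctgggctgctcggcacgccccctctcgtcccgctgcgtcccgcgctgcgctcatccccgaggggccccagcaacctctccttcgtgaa

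Cdk1 (chr10:69352863-69353162, minus strand) had 2 CHR, 1 E2F and 3 CCAAT matches. Top2a (chr11:99024140-99024439, minus strand) had 4 CHR and 6 CCAAT matches, and Mcm3 (chr1:20820263-20820562, minus strand) had 2 E2F and 3 CCAAT matches. None of the 3 motifs was matched in the window of Cdk6 (chr5:3343643-3343942, plus strand). Of the 37 member windows, 37.8% held CHR letters, 21.6% E2F letters and 64.9% CCAAT letters, against 19.2%, 2.26% and 37.4% of all 32851 windows of this length. Of 10 windows of members lower in RT than in ST, 5 held CHR, 4 E2F and 7 CCAAT letters. Of 3 windows of members higher in RT 0, 0 and 1 did. These 3 belong to Cdk6 and Cdkn2c only, and Cdkn2a has more than 1 of the 10. Among the 24 windows of members with no call in RT the numbers were 9, 4 and 16. No promoter window was matched for Ccna2, Ccne2, Ccnd1, Ccnd2, Cdkn1c, Aurkb, Tpx2 and Mcm4.

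In RT against ST, 5 of 40 members were higher and 12 lower, where 12.5% of all genes were called higher and 7.34% lower. The share of members higher equalled that of all genes, and the share lower was 30.0%. The 5 are the G1 genes Ccnd1, Ccnd2 and Cdk6 and the inhibitor genes Cdkn2c and Cdkn1c, and the 12 are 5 mitosis genes, 4 cyclin and kinase genes of S, G2 and M phase, the inhibitor genes Cdkn2a and Cdkn2b and the replication gene Mcm3. In SV against ST, 2 members were higher, Ccnd1 and Cdk6, where 2.39% of all genes were higher, and limma called 0 lower, where 0.0769% of all genes were lower. With equal replicate numbers as a block the fit called 1 lower (Tpx2), where 104 of 45101 probe sets were lower. At an unadjusted p under 0.05, whatever the fold, 6 members lay lower in SV by limma. The methods' t-test, run here on log2 signals, called 1 lower at an unadjusted p under 0.05 with over 2-fold and 0 after adjustment. Of 45101 probe sets it called 432 and 0 lower. By limma, 4 members lay higher in SV than in ST at an unadjusted p under 0.05, whatever the fold, beside the 6 lower. The share of all genes at that rule was not counted, so these 2 numbers are no result about the members in particular. In SV against RT, 7 members were higher and 5 lower, where 4.39% of all genes were higher and 6.41% lower. The median log2 fold change of the 40 members was -0.19 in SV against ST, -0.62 in RT against ST and 0.45 in SV against RT, beside 0.02, 0.08 and -0.04 for all genes.

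**Figure D1:**
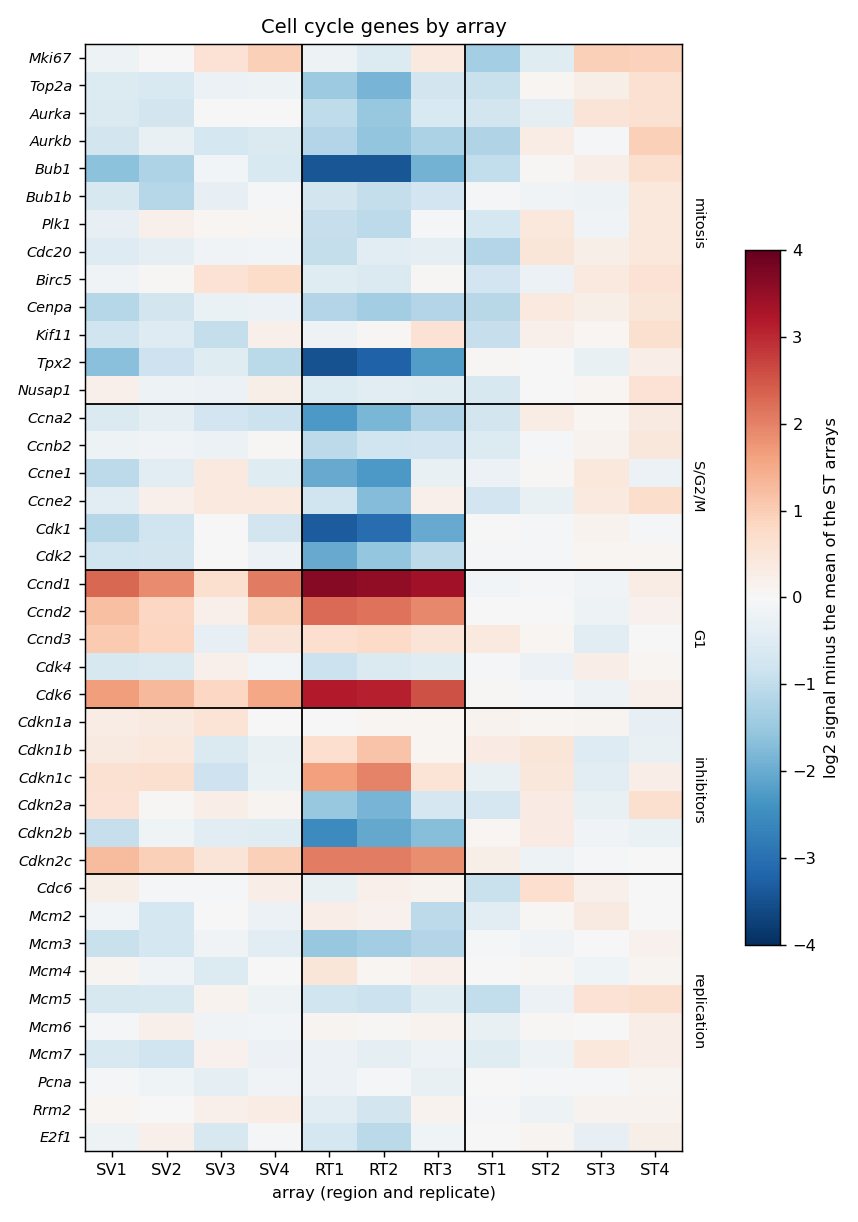
Log2 signal of each of the 40 members (rows, in 5 groups by role) in each SV, RT and ST array (columns), minus the mean of the 4 ST arrays; red is above and blue below that mean. Ccnd1, Ccnd2, Cdk6 and Cdkn2c are red in every RT array, and Cdk1, Tpx2, Bub1 and Cdkn2b are blue in every RT array.

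These counts depend on scaling. For RT against ST, the median of the log2 fold changes of all probe sets was 0.13 as deposited, -0.07 after quantile normalization and -0.29 after median centring. The members' split in RT was then 5 higher and 17 lower with quantile normalization, and 4 higher and 20 lower with median centring. Counts over all 45101 probe sets moved as well. They were 4607 higher and 2473 lower as deposited, 3477 and 3531 with quantile normalization, and 2812 and 5254 with median centring. For SV against RT, quantile normalization gave 10 higher and 4 lower and median centring 12 higher and 3 lower. There, all probe sets gave 1914 and 1727, and 2710 and 1349, against 1332 and 2251 as deposited. When all probe sets of a gene were averaged, 8 members were lower in RT than in ST and 4 were higher in SV than in RT. Of all 18194 genes 1225 and 726 were so, against 1335 and 799 with 1 probe set per gene. Bub1, Cenpa, Cdk2 and Top2a were lost from the first member count. From the second, Bub1, Ccna2, Cdk2 and Tpx2 were lost and Ccne1 was added. Within replicates 1 and 2 the members higher and lower were 3 and 1 in SV against ST, 5 and 10 in RT against ST and 8 and 4 in SV against RT. Over all probe sets the numbers within replicates 1 and 2 were 1127 and 192, 5089 and 2589, and 1287 and 2304. Replicates 3 and 4 hold a single RT array, so no counts against RT are given there. In SV against ST within them, 0 members were called in either direction, and so were 0 of all 45101 probe sets. That count is therefore no result about the members.

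Among the G1 genes, 3 of 5 were higher in RT than in ST, 2 were also higher in SV than in ST, and the same 3 were lower in SV than in RT. The signal of Ccnd1, the cyclin D1 gene, was 1547, 1161, 498 and 1335 in the SV arrays, 3929.9, 3683 and 3242 in RT and 291, 303, 288 and 392 in ST. All RT arrays lay above all SV arrays and these above all ST arrays, with SV replicate 3 the lowest of its region. Ccnd1 was higher in SV than in ST by 1.73 ± 0.28 on the log2 scale (adjusted p = 0.00459), higher in RT by 3.51 ± 0.30 (adjusted p = 3.99e-06) and lower in SV than in RT (-1.79 ± 0.30, adjusted p = 0.00165). Its 3 probe sets all gave these calls.

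Ccnd2, for cyclin D2, had signals of 3467, 2659, 1717 and 2804 in SV, 7149, 6814 and 5740.2 in RT and 1517, 1523, 1313 and 1677 in ST. The order was that of Ccnd1, again with no overlap between regions. Ccnd2 was higher in RT than in ST by 2.12 ± 0.20 (adjusted p = 6.88e-06) and lower in SV than in RT (-1.34 ± 0.20, adjusted p = 7.37e-04), in 7 of 7 probe sets. In SV against ST its value was 0.78 ± 0.18 (adjusted p = 0.0419), under 2-fold.

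Cdk6, for the kinase that D-type cyclins activate, had signals of 592, 459, 327 and 544 in SV, 1669, 1591 and 1091 in RT and 193, 179, 161 and 216 in ST. The regions did not overlap, and SV replicate 3 was the SV array closest to ST. Cdk6 was higher in SV than in ST by 1.33 ± 0.20 (adjusted p = 0.00295; 2 of 3 probe sets), higher in RT by 2.94 ± 0.22 (adjusted p = 1.45e-06; 3 of 3 probe sets) and lower in SV than in RT (-1.60 ± 0.22, adjusted p = 4.94e-04). The window printed for Cdk6 held none of the motifs.

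The other G1 kinase and the other D-type cyclin were not called. Cdk4, the second partner of D-type cyclins, had 1703 to 3108 in SV, 1483 to 1892 in RT and 2256 to 3194 in ST. Its RT arrays lay below its ST arrays, with -0.64 ± 0.20 (adjusted p = 0.031), under 2-fold. With median centring Cdk4 passed the threshold as lower in RT (-1.07). Ccnd3, for cyclin D3, had 0.52 in SV against ST (adjusted p = 0.419) and 0.66 in RT against ST (adjusted p = 0.108), and its dimmest probe set was lower in RT (-2.06, adjusted p = 0.0402). No-fold calls in SV against ST, at an adjusted p under 0.05 alone, were 4 members, Ccnd1, Ccnd2, Cdk6 and the inhibitor gene Cdkn2c, where 3.35% of all genes were higher by that rule.

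**Figure D2:**
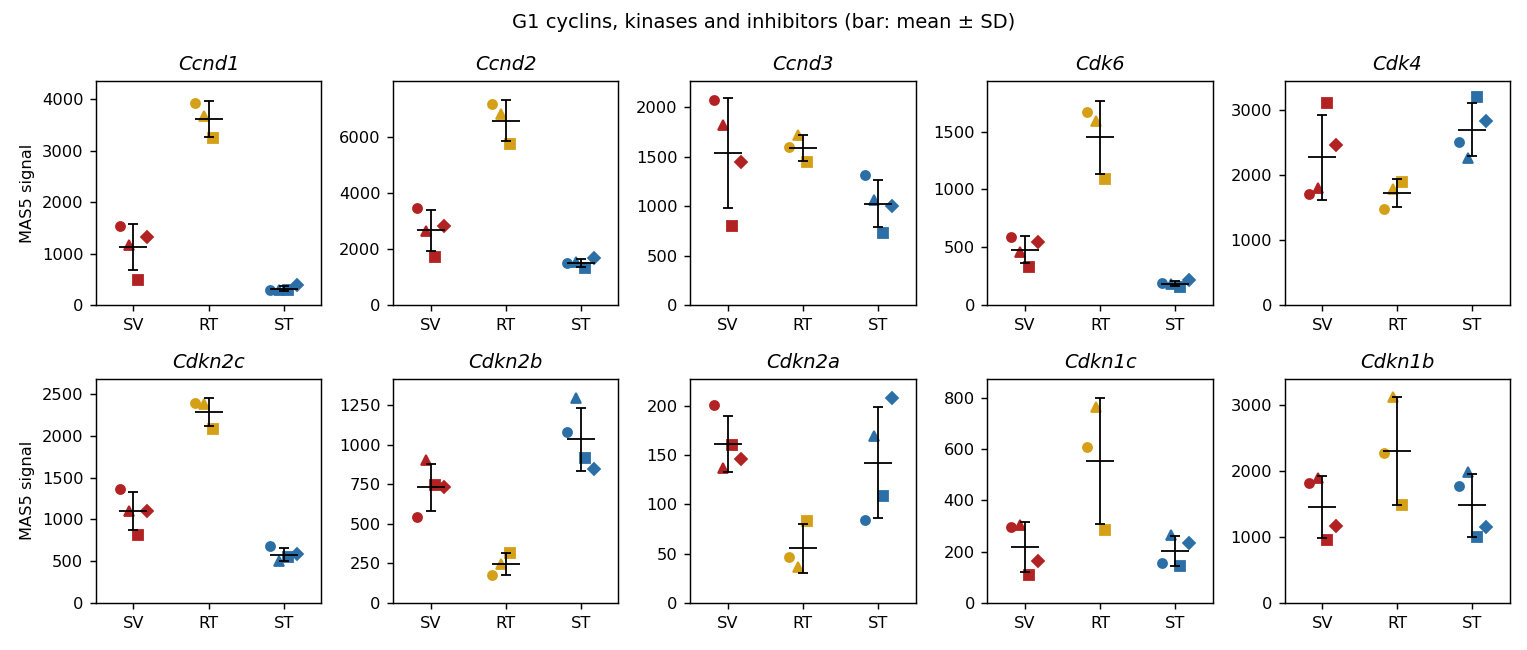
MAS5 signal (y axis, linear, from 0) of 10 G1 and inhibitor genes in SV, RT and ST; circles, triangles, squares and diamonds are replicates 1 to 4, and bars are mean ± SD over 4, 3 and 4 arrays. The RT arrays of Ccnd1, Ccnd2, Cdk6 and Cdkn2c lie above all others, and those of Cdkn2b and Cdkn2a below all others.

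The 6 inhibitor genes did not move together: in RT against ST 2 were higher and 2 lower. Cdkn2c, an INK4 inhibitor gene of CDK4 and CDK6, had signals of 1367, 1106, 812 and 1107 in SV, 2390.2, 2384 and 2088 in RT and 682, 498, 546 and 584 in ST. Its order of regions was that of Ccnd1 and Ccnd2, without overlap. Cdkn2c was higher in RT than in ST by 1.99 ± 0.17 (adjusted p = 4.03e-06) and lower in SV than in RT (-1.08 ± 0.17, adjusted p = 0.00117), and in SV against ST it had 0.91 ± 0.16 (adjusted p = 0.0077), under 2-fold. Without SV replicate 3 the value in SV against ST was 1.05, past the threshold, and the call in SV against RT was lost (-0.94), as it was with median centring (-0.77).

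Cdkn2b and Cdkn2a, which lie beside each other on chromosome 4 (windows at chr4:89310983-89311282, minus strand, and chr4:89294570-89294869, minus strand), went the other way. Cdkn2b, also an INK4 inhibitor gene, had 541, 902, 744 and 733 in SV, 174, 248 and 314 in RT and 1079, 1292, 915 and 845 in ST. The RT arrays lay below all others, and the SV and ST arrays overlapped. Cdkn2b was lower in RT than in ST (-2.10 ± 0.23, adjusted p = 2.07e-05) and higher in SV relative to RT (1.59 ± 0.23, adjusted p = 6.26e-04). Against ST, SV had -0.50 (adjusted p = 0.304). Cdkn2a, whose transcripts encode an INK4 inhibitor and the MDM2 antagonist ARF, had 201, 137, 160.4 and 146 in SV, 46.4, 36.6 and 83.3 in RT and 83.9, 169.6, 108 and 208 in ST. Here too the RT arrays were the lowest, though RT replicate 3 came within 1 unit of ST replicate 1. Cdkn2a was lower in RT than in ST (-1.36 ± 0.37, adjusted p = 0.014) and higher in SV relative to RT (1.61 ± 0.37, adjusted p = 0.00996). Leaving out RT replicate 1 or 2 ended both calls, with -1.28 and -1.11 against ST and 1.53 and 1.36 in SV against RT.

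Of the CIP/KIP inhibitor genes, Cdkn1c had 296, 306, 110.0 and 162 in SV, 609, 766 and 285 in RT and 157, 267, 146 and 235 in ST. Its RT arrays lay above the ST arrays, and RT replicate 3 fell within the SV range. Cdkn1c was higher in RT than in ST by 1.39 ± 0.40 (adjusted p = 0.0216) and lower in SV than in RT (-1.35 ± 0.40, adjusted p = 0.0411). The first call was lost with median centring (0.97) and without RT replicate 1 or 2 (1.26 and 1.10), or ST replicate 1 or 3 (1.29 and 1.25), and the second with quantile normalization (-1.23), median centring (-1.03) and without SV replicate 3 or 4 (-1.06 and -1.25), RT replicate 1 or 2 (-1.22 and -1.06), or ST replicate 4 (-1.35). Cdkn1b, for the CIP/KIP inhibitor of CDK2, was not called (-0.02 in SV against ST and 0.63 in RT against ST), and its signal was higher in replicates 1 and 2 than in replicates 3 and 4 in every region. Cdkn1a, the inhibitor gene that p53 induces, had 495 to 732 in SV, 491 to 529 in RT and 395 to 551 in ST, and was not called.

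Of the 6 measured cyclin and kinase genes of S, G2 and M phase, 4 were lower in RT than in ST and 3 of these were higher in SV than in RT. The median log2 fold change of the 6 was -1.54 in RT against ST, beside 0.08 for all genes. Cdk1, for the kinase that drives mitosis, had signals of 1010.0, 1278, 2192 and 1337 in SV, 218, 270.2 and 548 in RT and 2202, 2103, 2426 and 2145 in ST. The RT arrays were the lowest without overlap, and SV replicate 3 lay within the ST range while the other SV arrays lay below it. Cdk1 was lower in RT than in ST (-2.80 ± 0.29, adjusted p = 1.50e-05) and higher in SV relative to RT (2.13 ± 0.29, adjusted p = 4.84e-04), and had -0.67 ± 0.27 in SV against ST (adjusted p = 0.283). Its printed promoter window held matches of all 3 motifs.

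Cdk2, for the kinase of S phase entry, had 1734, 1781, 2973 and 2513 in SV, 735, 1022 and 1442 in RT and 2845, 2831, 3139.8 and 3124 in ST. Again RT lay below both other regions, with SV replicate 3 inside the ST range. Cdk2 was lower in RT than in ST (-1.54 ± 0.22, adjusted p = 2.16e-04) and higher in SV relative to RT (1.09 ± 0.22, adjusted p = 0.0057). The second call was lost without SV replicate 3 (0.95), or RT replicate 1 (0.85), and 1 of its 2 probe sets was called in either comparison.

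Ccna2, the cyclin A2 gene, had 260.3, 292, 229 and 213 in SV, 77.9, 108 and 166 in RT and 234, 470.4, 407 and 495 in ST. RT lay below all other arrays, and ST replicate 1 fell among the SV arrays. Ccna2 was lower in RT than in ST (-1.79 ± 0.30, adjusted p = 5.45e-04) and higher in SV relative to RT (1.15 ± 0.30, adjusted p = 0.02), in 1 of 2 probe sets. The call in SV against RT was lost without SV replicate 2 (1.06), or RT replicate 1 or 2 (0.89 and 1.12).

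Ccne1, the cyclin E1 gene, had 96.9, 149.9, 261 and 142 in SV, 49.2, 40.5 and 162 in RT and 169.9, 208, 266 and 169 in ST. RT replicate 3 was well above RT replicates 1 and 2 and inside the SV range. Ccne1 was lower in RT than in ST (-1.54 ± 0.45, adjusted p = 0.0217; 2 of 2 probe sets), a call lost without RT replicate 1 or 2 (-1.30 and -1.16), or ST replicate 3 (-1.40). Its value for SV against RT was 1.15 (adjusted p = 0.113), and 1.77, past the threshold, once RT replicate 3 was left out. The dimmer of its 2 probe sets was called higher in SV than in RT with all arrays (1.40, limma adjusted p = 0.031).

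Ccnb2, the cyclin B2 gene, had 126, 133, 123 and 149.9 in SV, 70.5, 83.9 and 85.0 in RT and 98.9, 141, 159.7 and 201 in ST. The RT arrays were the lowest without overlap, but the value in RT against ST, -0.87 ± 0.26 (adjusted p = 0.0268), was under 2-fold, and it passed with quantile normalization (-1.29), with median centring (-1.30) and without ST replicate 1 (-1.06). Ccne2, for cyclin E2, was not above the array median on 8 of 11 arrays and had -0.77 (adjusted p = 0.304) in RT against ST.

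**Figure D3:**
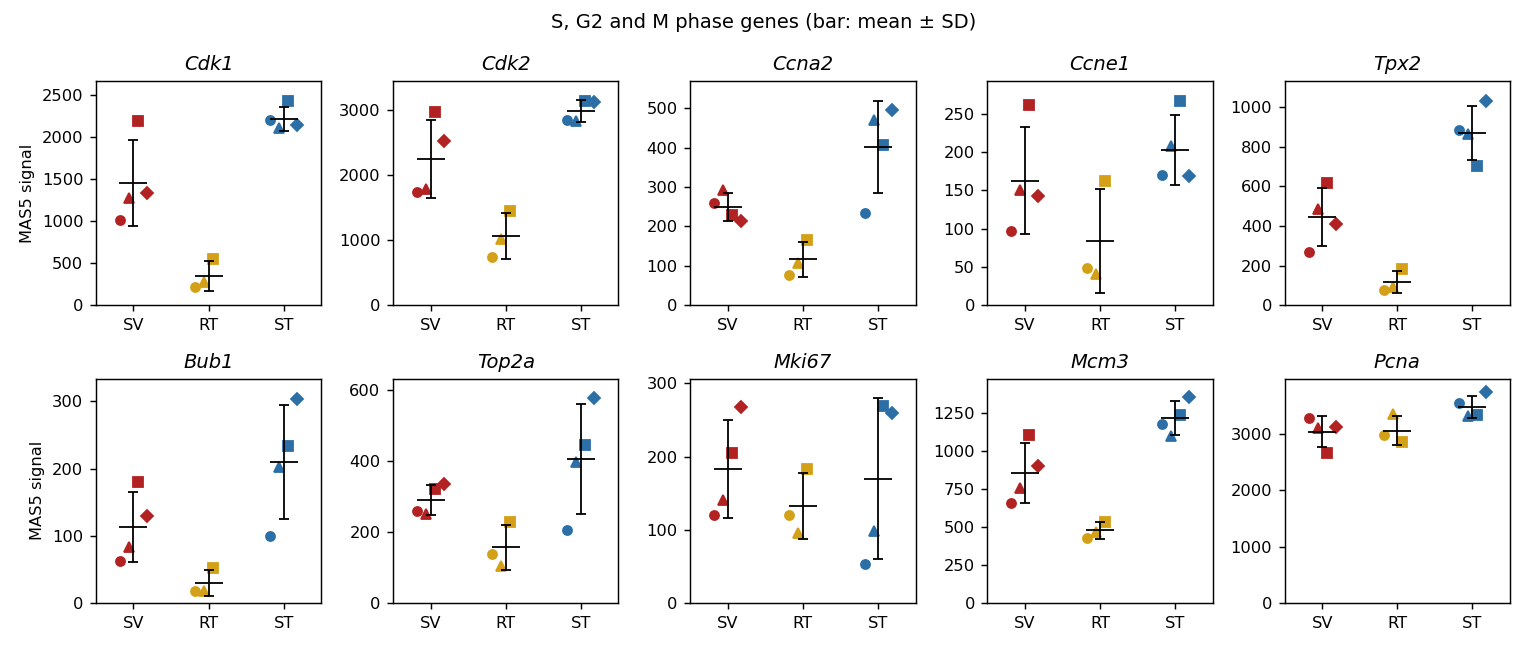
MAS5 signal (y axis, linear, from 0) of 10 genes of S, G2 and M phase in SV, RT and ST; circles, triangles, squares and diamonds are replicates 1 to 4, and bars are mean ± SD over 4, 3 and 4 arrays. The RT arrays of Cdk1, Cdk2, Ccna2, Tpx2, Bub1 and Mcm3 lie below all others, while those of Mki67 lie within the ST range and those of Pcna near the other regions.

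Of the 13 mitosis genes, 5 were lower in RT than in ST (Tpx2, Bub1, Top2a, Aurkb and Cenpa) and 0 were higher by limma (0 also at an unadjusted p under 0.05 and by the methods' t-test). The median log2 fold change of the 13 was -0.81 in RT against ST and -0.40 in SV against ST. As a median over the 13 genes above the ST mean, ST replicate 1 stood at -0.90, within the RT arrays (-1.05 to -0.61), while the other ST arrays stood at 0.06 to 0.58. Without ST replicate 1, 15 of all 40 members were lower in RT, against 12 with all arrays. Over all probe sets the counts were 2527 and 2473. Tpx2, whose protein activates Aurora A on the spindle, had 267, 487, 614 and 411 in SV, 77.4, 91.3 and 181 in RT and 883, 862, 701 and 1028 in ST. It was the one member whose ST arrays lay above all SV arrays and these above all RT arrays. Tpx2 was lower in RT than in ST (-2.99 ± 0.31, adjusted p = 1.47e-05) and higher in SV relative to RT (1.97 ± 0.31, adjusted p = 0.0011), each in 2 of 4 probe sets. In SV against ST its value was -1.01 ± 0.29 (adjusted p = 0.0957), and it was called lower without SV replicate 3 (-1.19), or RT replicate 3 (-1.01), with replicates 1 and 2 against 3 and 4 as a block (-1.01, adjusted p = 0.0283) and within replicates 1 and 2 (-1.27, adjusted p = 0.0321).

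Bub1, a kinase gene of the spindle checkpoint, had 62.2, 82.6, 180.1 and 129 in SV, 18.2, 18.0 and 52.0 in RT and 99.2, 202, 234 and 303 in ST. RT lay below all other arrays. Bub1 was lower in RT than in ST (-2.92 ± 0.50, adjusted p = 7.04e-04) and higher in SV relative to RT (2.02 ± 0.50, adjusted p = 0.0161), in 1 of 2 probe sets. The call in SV against RT was lost without RT replicate 1 or 2 (1.77 and 1.76) and with a floor of 32 on the signal (1.47).

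Top2a, for the topoisomerase that untangles chromosomes, had 259, 252, 321 and 334 in SV, 139, 106 and 228 in RT and 205, 398, 447 and 578 in ST. ST replicate 1 lay below RT replicate 3, so that the regions overlapped. Top2a was lower in RT than in ST (-1.35 ± 0.33, adjusted p = 0.00819; 1 of 3 probe sets), a call lost without RT replicate 2 (-1.10), and had 0.95 in SV against RT (adjusted p = 0.0763). Without RT replicate 3 that value was 1.25, past the threshold.

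Aurkb, the Aurora B kinase gene, had 53.7, 73.2, 55.1 and 60.3 in SV, 40.0, 30.1 and 37.7 in RT and 39.4, 110.2, 87.4 and 174 in ST. ST replicate 1 lay within the RT range, and 8 of the 11 signals are not above their array's median. Aurkb was lower in RT than in ST (-1.34 ± 0.44, limma adjusted p = 0.0415, in 2 of 2 probe sets). The call was lost when any 1 of 9 arrays was left out, all except SV replicate 3 and ST replicate 1. Over all 11 left-out arrays, with the call kept or lost, the values were -1.74 to -1.02. By the methods' t-test the call was lost too. Cenpa, for the histone H3 variant of centromeres, had 102, 133, 185 and 187 in SV, 98.7, 85.4 and 99.2 in RT and 103, 289, 263 and 315 in ST. The RT arrays were the lowest, and ST replicate 1 was close to them. Cenpa was lower in RT than in ST (-1.24 ± 0.36, adjusted p = 0.0226; 1 of 3 probe sets), a call lost without RT replicate 1 or 2 (-1.28 and -1.17), or ST replicate 2, 3 or 4 (-1.12, -1.16 and -1.08).

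The other 8 mitosis genes were not called in any comparison. Mki67, the proliferation marker Ki-67, had 121 to 268 in SV, 95.6 to 183 in RT and 53.4 to 269 in ST, with log2 fold changes of 0.34 ± 0.48 in SV and -0.11 ± 0.51 in RT against ST. The ST range of Mki67 spans both other regions, so no difference was detectable with these arrays. In RT against ST, Aurka, for Aurora A, had -1.05 (adjusted p = 0.0548), Bub1b, for a spindle checkpoint protein, -0.81 (adjusted p = 0.0348, under 2-fold), Plk1, a mitotic kinase gene, -0.67, and Cdc20, for an activator of the anaphase-promoting complex, -0.59. With median centring these 4 passed the threshold as lower in RT, and with quantile normalization Aurka, Bub1b and Plk1 did. Birc5 (survivin) had -0.34, Nusap1, for a spindle microtubule protein, -0.48, and the spindle motor gene Kif11 0.15. The dimmer probe sets of Kif11 had -0.89 and -0.24, not called. Kif11 was not above the array median on 8 of 11 arrays, and Plk1 on 7 of 11.

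Of the 10 replication genes, 1 was lower in RT than in ST (beside 7.34% of all genes). None was called in the other comparisons, and 0 were by the methods' t-test. At an unadjusted p under 0.05 there were 1 in SV against ST and 3 in SV against RT. The share of all genes at that rule was not counted. Mcm3, for a subunit of the MCM helicase, had 659, 753, 1107 and 898 in SV, 428, 468 and 535 in RT and 1177, 1096, 1239 and 1358 in ST. The RT arrays were the lowest without overlap, and SV replicate 3 was the one SV array inside the ST range. Mcm3 was lower in RT than in ST (-1.35 ± 0.17, adjusted p = 7.27e-05; 4 of 5 probe sets), with 0.82 in SV against RT (adjusted p = 0.00649, under 2-fold). In SV against RT, 1 of its 5 probe sets, a dimmer one, was called higher in SV (1.03, limma adjusted p = 0.0228). The other 5 subunit genes of the same helicase were not called in RT against ST, with log2 fold changes of -0.20 for Mcm2, 0.26 for Mcm4, -0.71 for Mcm5, 0.09 for Mcm6 and -0.28 for Mcm7. Mcm5 passed as lower with median centring (-1.13) and without ST replicate 1 (-1.03). The sliding clamp gene Pcna had 2655 to 3281 in SV, 2851 to 3351 in RT and 3329 to 3739 in ST, and log2 fold changes of -0.20 ± 0.11 in SV and -0.19 ± 0.12 in RT against ST. Rrm2, a ribonucleotide reductase gene, had -0.35 in RT against ST, the origin licensing gene Cdc6 0.02, and the transcription factor gene E2f1 -0.65. E2f1 was called lower in RT with quantile normalization (-1.03) and median centring (-1.07). It was not above the array median on 6 of 11 arrays, and Cdc6 on 10 of 11.

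**Figure D4:**
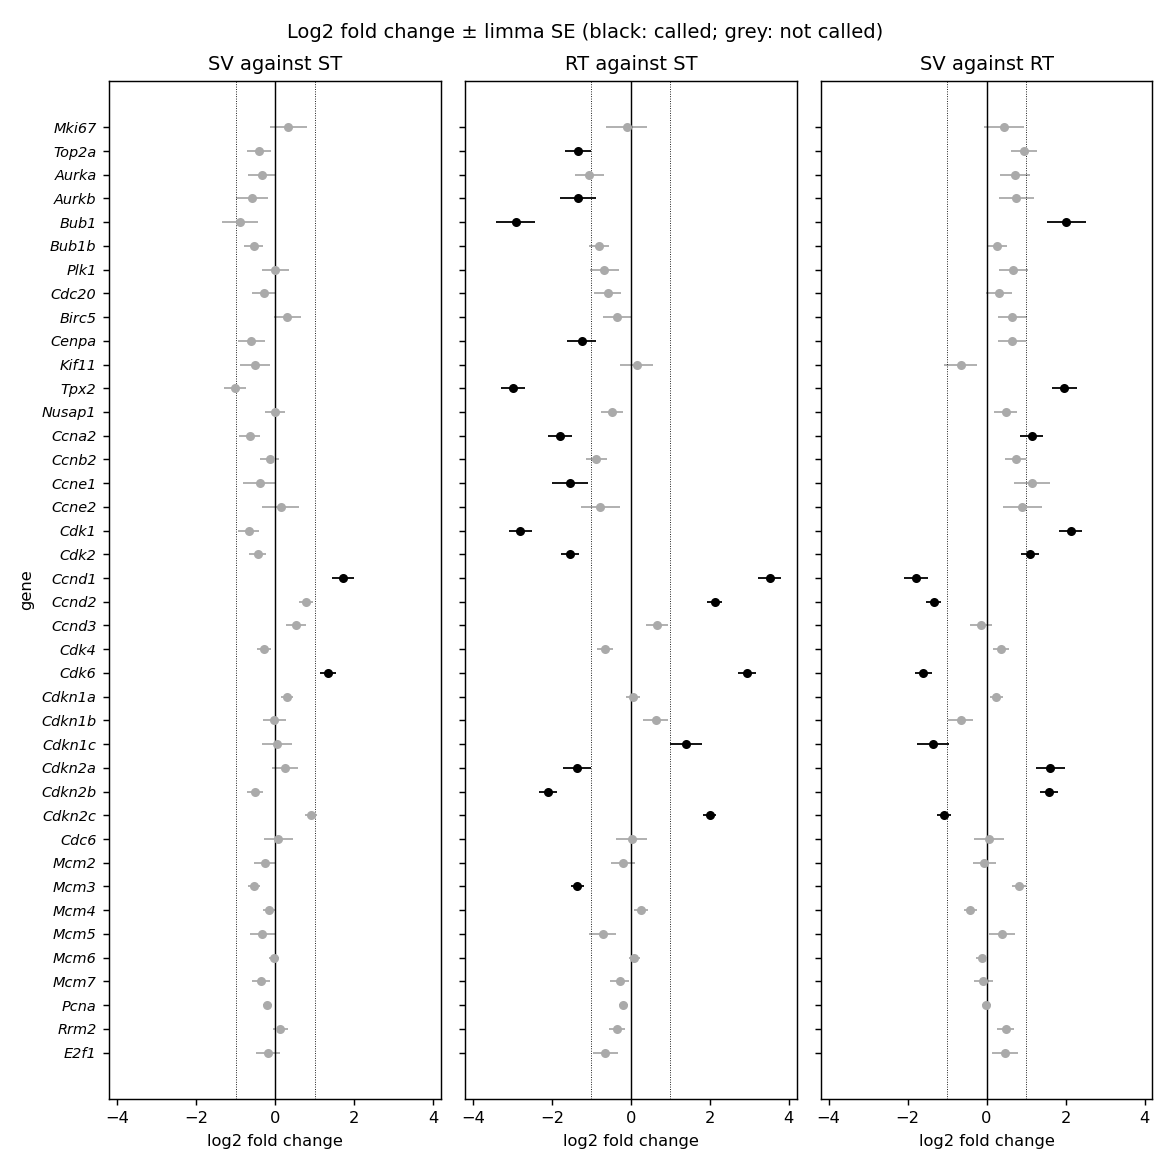
Log2 fold change (x axis) of the 40 members (rows) in SV against ST, RT against ST and SV against RT; bars are the limma SE, dotted lines mark 2-fold, and black points were called. In RT against ST black points lie on both sides, 5 higher and 12 lower, and in SV against ST the 2 black points are Ccnd1 and Cdk6.

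Genes of the same pathway outside the set were counted from lists. Of 51 other mitosis genes, 22 were lower in RT than in ST and 0 were higher by limma (0 also at an unadjusted p under 0.05 and by the methods' t-test), with a median log2 fold change of -1.06. Those lower in RT were 43.1% of the list, beside 7.34% of all genes. Between SV and RT, 12 were higher in SV (23.5%, beside 4.39% of all genes). In SV against ST limma called 0, and the methods' t-test called 0. At an unadjusted p under 0.05, 10 lay lower in SV than in ST, and the share of all genes at that rule was not counted. Racgap1, for a GTPase-activating protein of cytokinesis, had a signal of 1373 ± 585 in SV, 232 ± 187 in RT and 2327 ± 263 in ST (mean ± SD, n = 4, 3 and 4). It was lower in RT than in ST by a log2 fold change of -3.61 ± 0.41 (adjusted p = 3.07e-05) and higher in SV than in RT (2.76). Its partner Kif23, a kinesin gene of the central spindle, was lower in RT too (-2.60, adjusted p = 7.96e-06), as were the kinetochore gene Ndc80 (-2.78) and the cohesin protector gene Sgo1 (-2.78). Kif23 (2.15), the CDK-binding protein gene Cks2 (2.08) and Trip13 (1.70), an ATPase gene of checkpoint silencing, were also higher in SV than in RT.

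Of 45 other replication genes, 10 were lower and 1 was higher in RT than in ST, and 5 were higher in SV than in RT. These are 22.2%, 2.22% and 11.1% of the list, beside 7.34%, 12.5% and 4.39% of all genes. The lower ones include Chaf1b, for a subunit of chromatin assembly factor 1 (-2.92 ± 0.24, adjusted p = 3.49e-06), the kinase gene Cdc7 (-2.40), the chromatin remodeller gene Hells (-2.34) and the DNA polymerase gene Pole (-2.13). The higher one was Gins2, of the GINS complex (1.24, adjusted p = 1.03e-04). The genes Chaf1b (SV signals of 354 ± 76.8 and RT signals of 91.7 ± 36.6), Cdc7 (1.78), Hells (1.57) and Tk1, for thymidine kinase (1.32), were higher in SV than in RT. The median of this list in RT against ST was -0.28.

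Shares of regulators called in RT were read beside the 12.5% of all genes higher and 7.34% lower. Of 16 genes of the E2F and RB families, Rb1 was lower in RT than in ST (-1.43 ± 0.17, adjusted p = 4.86e-05) and higher in SV than in RT (1.20), while its relative Rbl1 (1.37, adjusted p = 0.00153) and E2f5 (1.10, adjusted p = 2.13e-04) were among the 3 higher in RT (18.8% higher and 6.25% lower). Of 36 other cyclins, CDKs and inhibitors, 4 were higher and 3 lower in RT (11.1% and 8.33%), near the shares of all genes. The higher ones were the CDK-like and CDK genes Cdkl1 (2.17), Cdk18 (2.11), Cdk14 (2.03) and Cdkl2 (1.23), and the lower ones were Cdk5 (-2.07), Cdk19 (-1.50) and the fourth INK4 inhibitor gene, Cdkn2d (-1.18, adjusted p = 1.20e-05). SV had higher Cdk5 (1.71) and Cdk19 (1.18) than RT, and lower Cdkl1 (-1.68) and Cdk14 (-1.65). Of 17 cohesin and condensin genes, the condensin gene Ncapd2 was lower in RT (-2.13) and higher in SV than in RT (1.14).

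Of 17 genes of p53 and cell cycle arrest, Gadd45a, a stress-induced growth arrest gene, was higher in SV than in ST, with a signal of 1512 ± 409.7 in SV, 1358 ± 82.3 in RT and 691 ± 90.4 in ST (1.09 ± 0.19, adjusted p = 0.00856). It was the 1 gene of all 182 measured in these 6 lists that was called in SV against ST. That is 0.549% of them, where 2.39% of all genes were higher in SV. In RT against ST the polo-like kinase gene Plk3 was higher (3.84, adjusted p = 0.00104) and the p53 target Sesn2 lower (-2.12, adjusted p = 8.50e-06). Between SV and RT, Sesn2 (1.38) and Plk2 (1.05) were higher in SV and Plk3 lower (-2.39).

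Some lists of cell type markers differed between regions as well, while 0 of 4 Leydig cell and 0 of 9 macrophage and leukocyte markers were called. Of all genes, 12.5% were higher and 7.34% lower in RT against ST, and 2.39% were higher in SV against ST. In RT against ST, 13 of 18 spermatogonial markers were lower and 2 higher, and 11 of the 18 were below the array median on every RT array, among them the defining germ cell genes Ddx4, Sall4 and Lin28a. The median of the 18 was -1.39 to -0.22 in SV and -3.75 to -1.66 in RT, as log2 signal above the ST mean, while their summed signal was 6718 to 9818 in SV, 8448 to 8455 in RT and 10169 to 14390.1 in ST. The 2 higher in RT were Gfra1 (4.34) and Ret (2.01), the receptor genes for GDNF. Among the Sertoli cell markers 8 of 15 were lower in RT, and among the rete testis markers 10 of 11 were higher in RT and 8 in SV. Against ST, RT also had 3 of 6 peritubular myoid markers lower, and 3 of 6 endothelial and 5 of 8 efferent duct and epididymis markers higher. SV replicate 3 was the SV array with the lowest summed rete testis signal (5273) and the highest spermatogonial (9818) and Sertoli cell (131059) sums. It was the lowest SV array in all 5 members higher in RT than in ST. Among the 12 members lower in RT it was the highest SV array in 6 (Bub1, Tpx2, Ccne1, Cdk1, Cdk2 and Mcm3) and neither highest nor lowest in the other 6, and among the 23 members with no call in RT it was the highest in 7 and the lowest in 9. These positions were not counted over all genes, so they are no result about cell cycle genes in particular. RT replicate 3, with the lowest rete testis sum of RT (32469), had a summed signal of the 13 mitosis genes of 1829, against 1266 and 1279 in RT replicates 1 and 2. In SV and ST too, replicates 3 and 4 had higher mitosis sums than replicates 1 and 2. The sums were 2784 and 2762 against 1858 and 2157 in SV, and 3486 and 4517 against 2183 and 3456 in ST. For RT replicate 3, rete testis content and replicate group therefore cannot be told apart. The part of these cell types in the members' differences was not tested. In such bulk pieces, fewer cells of a type and less RNA per cell cannot be told apart.

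**Figure D5:**
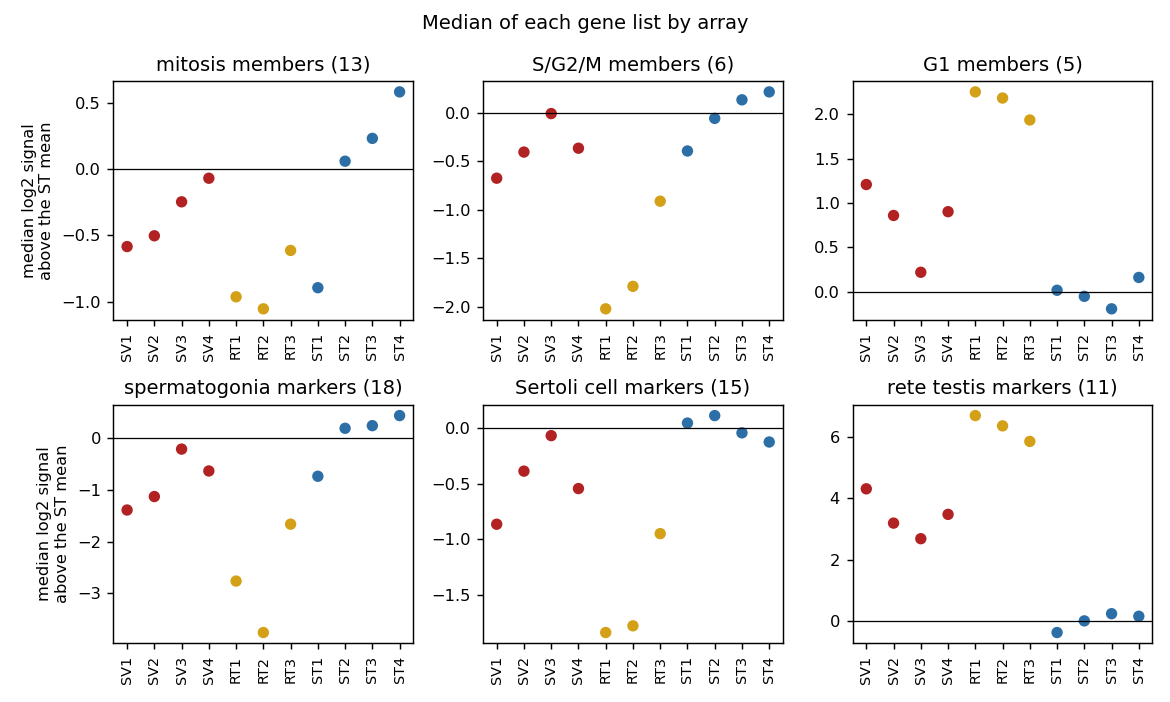
Median log2 signal above the ST mean (y axis) of 3 groups of members and 3 lists of cell type markers in each SV, RT and ST array (x axis), with the number of genes in brackets. The G1 members and rete testis markers are highest in the 3 RT arrays, and the S, G2 and M members, spermatogonial and Sertoli cell markers are lowest there.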

How the data were processed

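RNA of SV, RT and ST pieces, each array from a pool of 20 testes of 7-week-old W/Wv mice, was purified with a micro-scale column kit, labelled by a 3′ in vitro transcription kit and hybridized to Affymetrix mouse arrays. The deposited values are intensities on a linear scale: the authors summarized the probes of each array to MAS5 signals and scaled every array to the same mean without the lowest and highest 2%. Labels give 4 SV, 3 RT and 4 ST arrays, although 3 per region stand in the series' design text. No array was a copy of another (0 identical pairs). Gene symbols came from the platform annotation: 34958 probe sets had 1 symbol, 932 several and 9211 none.

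Log2 signals of all 11 arrays were fitted in R 4.3.3 by limma 3.58.1 (lmFit, then eBayes with trend) without a filter, with Benjamini-Hochberg adjustment over 45101 probe sets, and calls needed an adjusted p under 0.05 and over 2-fold. The script was tested on simulated data. The number of arrays limits the precision. Members and gene lists were chosen with earlier results of these data known. Named are all members, with every array's signal for those called or apart from both other regions, and from each list up to 4 called genes per direction with the largest change whose higher region lay above the median signal (87.1). Alternatives were the t-test of the methods, unadjusted or adjusted; fits of only the regions compared; no trend; median centring or quantile normalization; a floor of 32 on the signal or 32 added to it; no dim probe sets (lowest 25%); the mean over a gene's probe sets; a replicate block; replicates 1 and 2 against 3 and 4 as a block, or each alone; no fold minimum; and every array left out once. The t-test was run on log2 signals, with the fold taken from the log2 means. The study's methods give the fold as a ratio of signals and name no log scale for the test. Python 3.11.15 with matplotlib 3.10.9 drew the figures. Promoter windows were credited to RefSeq (GRCm38.p6).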

Additional observations from a re-analysis of the deposited data

Results flagged for a closer look

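In 80 groups of 4 arrays (40 members in SV and in ST), 4 had an array far from the other 3, and chance flags about 1 in 20 groups, or 4 here. ST replicate 1 was far below the others for Cdc20 (225.8, others 603 to 718) and for Cenpa (103, others 263 to 315). ST replicate 4 was far above the others for Ccnd1 (391.6, others 288 to 303) and far below them for Cdkn1a (395, others 524 to 551). Without ST replicate 1, the log2 fold change of Cenpa in RT against ST was -1.61. For Ccnd1, the value in SV against ST without ST replicate 4 was 1.83.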

How the results depend on the processing

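Of 31 called member values, 19 were kept without any 1 array, 12 were lost without at least 1, 9 were kept in every alternative and 0 changed sign in any. The count higher in SV against ST, 2 (675 over all probe sets), became 0 with the adjusted t-test (69) and 4 with no fold threshold (905). It was also 0 within replicates 3 and 4, where 0 of all probe sets were called. The count lower in SV against ST, 0, was 1 (Tpx2) in 4 settings. These were the unadjusted t-test, a replicate block, a block of replicates 1 and 2 against 3 and 4, and replicates 1 and 2 alone. Over all probe sets they gave 432, 104, 80 and 192 lower, against 30 in the main fit. The count lower in RT against ST, 12, became 7 with the adjusted t-test and 20 with median centring. Over all probe sets the count went from 2473 to 2001 and 5254. In SV against RT the 7 higher became 1 with the adjusted t-test, 12 with median centring and 4 with the mean of a gene's probe sets. Over all probe sets the 1332 higher became 385 and 2710, and with the mean 726 of 18194 genes were higher. The 5 members lower in SV than in RT became 1 with the adjusted t-test and 3 with median centring. Over all probe sets 2251 became 826 and 1349. Fits of only the regions compared use the arrays of the t-test. They called 2 members higher and 0 lower in SV against ST and 5 and 11 in RT against ST. In SV against RT they called 7 and 4. Over all probe sets they gave 462 and 29, 4586 and 2427, and 1190 and 2366. Replicates 3 and 4 alone hold fewer arrays, and the cause of the other shifts was not tested.

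Leaving out 1 array at a time gave 2 to 3 higher and 0 to 1 lower in SV against ST, 4 to 5 higher and 7 to 15 lower in RT against ST, and 3 to 9 higher and 3 to 5 lower in SV against RT. The lower count in RT was 7 without RT replicate 2, 8 without RT replicate 1 and 15 without ST replicate 1. Over all probe sets it was 2211, 2120 and 2527, against 2473 with all arrays. In SV against RT the higher count was 3 without RT replicate 1 and 4 without RT replicate 2. All probe sets gave 878 and 1035 there, against 1332 with all arrays. The lower count in SV against RT was 3 without SV replicate 3, and over all probe sets 1658, against 2251. Lower counts in SV against ST of 1 came without SV replicate 3 or RT replicate 3. Over all probe sets 155 and 43 were lower there, against 30 with all arrays.

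The labels do not say whether equal replicate numbers pair arrays, and the main fit has no block. After region means were removed, arrays of the same number correlated at 0.0692 to 0.190 over all probe sets, against -0.179 to 0.178 for other numbers. Over probe sets above the median level the values were 0.277 to 0.670, against -0.580 to 0.477. In both sets 10 of 11 arrays correlated best with one of their own number. The main fit would ignore such a pairing. With a replicate block the counts higher and lower were 2 and 1 in SV against ST, 5 and 11 in RT against ST, and 8 and 5 in SV against RT: Tpx2 was added in SV (-1.01, adjusted p = 0.026) and Ccne1 in SV against RT (1.21, adjusted p = 0.01), and Aurkb in RT was lost (-1.18, adjusted p = 0.053). Over all probe sets the replicate block gave 995 and 104, 5895 and 2593, and 1499 and 3593. Of the 40 members, 17 were below the array median on at least 1 array, where signals are least certain.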
